A study of Mus musculus with 2 samples.

Results

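The chemokine system was examined in long-term hematopoietic stem cells (LT-HSCs) of aged mice through the array probes named for chemokine ligands (*Ccl* and *Cxcl* genes) and chemokine receptors (*Ccr* and *Cxcr* genes). Probes that are not controls were taken when their gene name began with one of these 4 stems and a digit, and *Ccr2* and *Cxcr4* were left out of the list. This gave 48 genes, 33 ligands and 15 receptors, among 34646 gene names on the array, of which 22492 matched a RefSeq gene.

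Chemokines are small secreted proteins that guide the migration of leukocytes, and their receptors are G protein-coupled receptors of the responding cell. CC and CXC chemokines are told apart by the spacing of their first cysteines, and many ligands share receptors, so that one receptor can read several ligands. In the bone marrow the system is best known for *Cxcl12*, which stromal cells make to hold stem cells in their niche, whereas most inflammatory ligands are made by stimulated leukocytes and stromal cells.

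The cells were LT-HSCs sorted from the bone marrow of 2-year-old C57BL/6J mice, as CD150+CD48-Flt3-CD34- LSK cells according to the sample labels, with CD41- added in the methods. *p38α*Δ/Δ mice were CAG-CreERT2:*p38α* fl/fl animals injected with tamoxifen (TAM) at an age of about 1 year, and the array with their label is called the Δ/Δ-labelled array, for the reason given with *Mapk14*. The array of the other genotype is labelled wild-type (*p38α*+/+), and the methods describe such controls as Cre(-) mice with the same *p38α* fl/fl alleles and age that also received TAM, so both genotypes carried the floxed alleles and the injection. The CAG promoter drives the inducible Cre in all tissues, so deletion was not limited to HSCs. The number of mice behind each array is not given in the sources used here, and male and female mice were used without distinction.

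RNA was labelled with Cy3 and hybridized to Agilent mouse arrays read in a single colour. There was 1 array per genotype, both on 1 slide, with 62976 spots each. The level of a gene is the log2 signal of its brightest probe relative to the 75th percentile of the array, and a gene is called detected where the scanner software marked that probe as well above background. With 1 array per genotype no test was possible and the spread between mice is unknown, so that a difference compares 2 arrays and not the genotypes. The size used to call a difference was 2-fold, a difference of 1 on the log2 scale. Where a gene was detected on 1 array, the other side was raised to the lowest detected signal of that array (or kept at its own signal where that was higher), and the fold is a lower bound. The error given is the standard deviation (SD) expected of a difference when the same probe is read from single spots, from 256 probes spotted at least 5 times. It was 0.28 at levels below -2, 0.16 from -2 to 0 and 0.10 above 0, and it holds no variation between mice. In such bulk samples, fewer cells of a type and less RNA per cell cannot be told apart.

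*Mapk14*, the gene of p38α, was examined first. Its brighter probe had a log2 level of 2.34 on the *p38α*+/+ array and 2.31 on the Δ/Δ-labelled array, a difference of -0.04, and its other probe differed by -0.05. Both differences are within the SD between spots of 0.10, so *Mapk14* was not detectably lower where the label gives its deletion, and the directions below are those between labels. The deleted exons are not named in the sources used here, so whether a probe lies in them is not known, and a probe outside them would not check the label. The study also measured the deletion by genomic qPCR in blood cells, which is not analysed here. All 11 markers of LT-HSCs in the list were detected on both arrays.

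Of the 48 genes, 21 were detected on the *p38α*+/+ array, 26 on the Δ/Δ-labelled array, and 27 on at least 1 array, a smaller share than the 76.2% of all 22492 genes. Of these 27, 20 were detected on both arrays, 6 on the Δ/Δ-labelled array alone and 1 on the *p38α*+/+ array alone. Over all 22492 genes, 16267 were detected on the *p38α*+/+ array and 16473 on the Δ/Δ-labelled array. Of these, 666 were detected on the *p38α*+/+ array alone and 872 on the Δ/Δ-labelled array alone. By role, 20 of 33 ligands and 7 of 15 receptors were detected. All 3 interferon-induced ligands of Cxcr3 (*Cxcl9*, *Cxcl10* and *Cxcl11*) were detected, and 4 of 5 neutrophil-attracting CXC ligands were. The brighter *Cxcl11* probe is not particular to its gene, as given below, so its detection may not be that of *Cxcl11* RNA. Neither Cxcr3 nor Cxcr2, the receptors that read these interferon-induced and neutrophil-attracting ligands, was detected on either array. Genes detected on neither array also included the ligands *Ccl1*, *Ccl7*, *Ccl8*, *Ccl11*, *Ccl12*, *Ccl20*, *Ccl22*, *Ccl26*, *Ccl28*, *Cxcl3*, *Cxcl13*, *Cxcl14* and *Cxcl17* and the receptors *Ccr1*, *Ccr1l1*, *Ccr3*, *Ccr4* and *Cxcr5*. The 21 genes detected on neither array have only an upper bound to their level, and nothing is said of their direction.

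**Figure D1:**
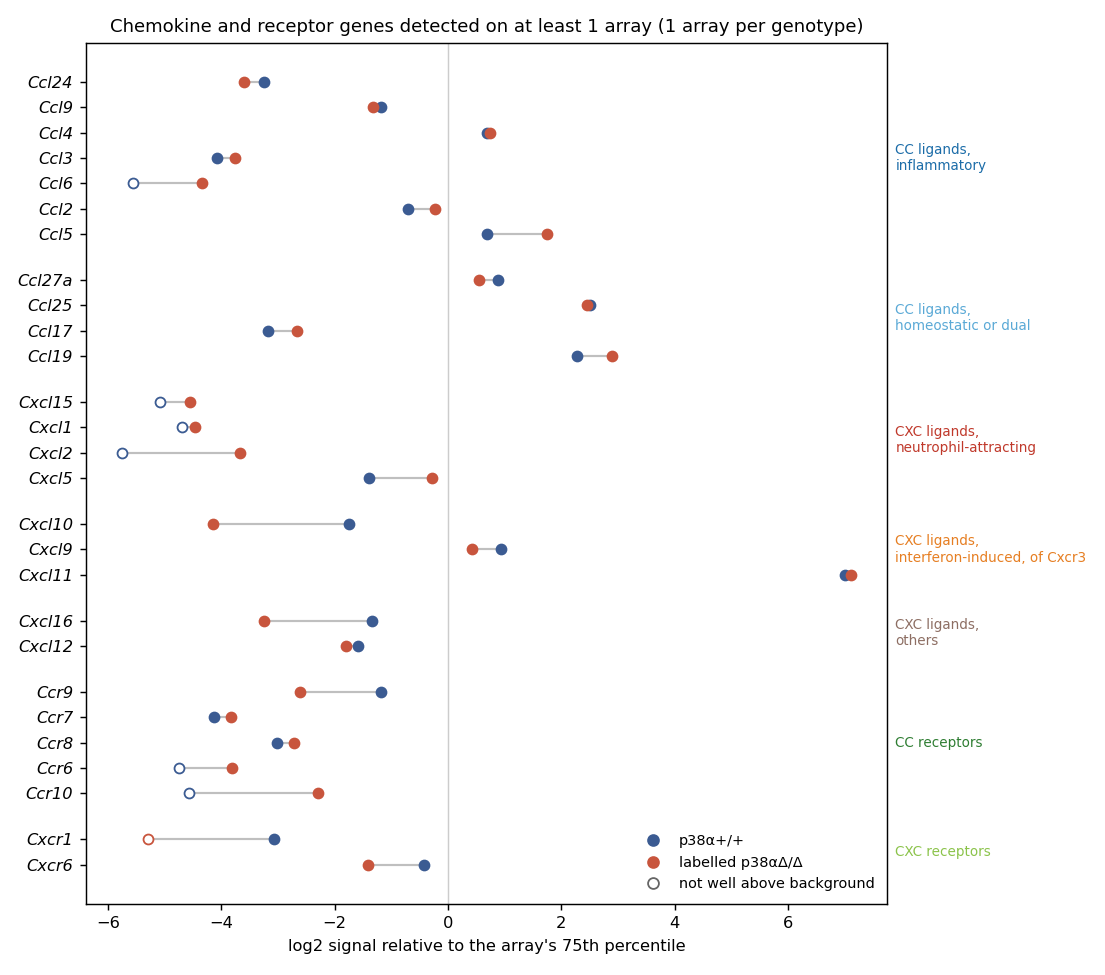
Log2 signal of the 27 detected genes on each array, relative to the 75th percentile of that array, with 1 point per array, ordered by role. Open points mark signals too dim to be called detected, which were 6 on the *p38α*+/+ array and 1 (*Cxcr1*) on the Δ/Δ-labelled array. Levels of different genes come from different probes and are not compared.

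As a whole the family was centred near 0. Among the 20 genes detected on both, 10 were lower and 10 were higher on the Δ/Δ-labelled array, with a median log2 difference of 0.00 (-0.0037), and the median over all 15601 genes detected on both was -0.04. With the 7 bounds included the median was 0.11, beside -0.03 over all genes detected on at least 1 array. Detection on 1 array alone fixed the direction of these bounds, 6 of them higher and 1 lower on the Δ/Δ-labelled array. Single genes differed in both directions. At least 2-fold lower were 4 of 27 (*Cxcl10*, *Cxcl16*, *Ccr9* and *Cxcr1*), where 6.73% of all detected genes were, and at least 2-fold higher were 3 of 27 (*Ccr10*, *Ccl5* and *Cxcl5*), where 4.13% of all were. Most of these genes were dim, and dim genes differed more often over the whole array. Of the 20 members with a mean level below 0, 4 were lower and 2 higher, beside 10.8% and 6.63% of the 9604 genes at such levels. Of the 7 members at 0 or above, 1 was higher and 0 were lower. A share like that of all genes would be 1.82 lower and 1.11 higher among 27 members, or 2.17 and 1.33 among the 20 dimmer ones, and the members' counts exceed these by few genes.

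**Figure D2:**
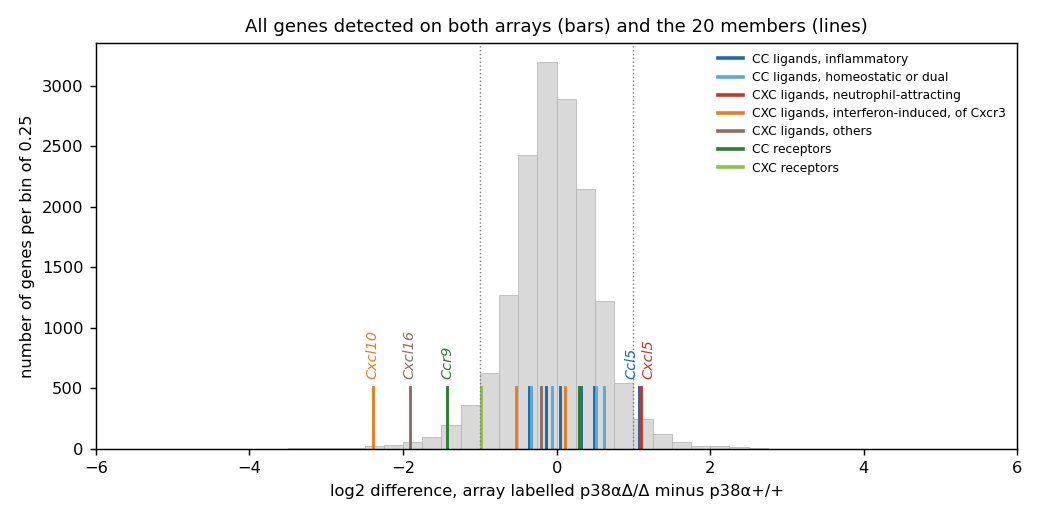
Histogram of the log2 difference (Δ/Δ-labelled array minus *p38α*+/+) over the 15601 genes detected on both arrays, in bins of 0.25, with a line for each of the 20 members, coloured by role. Dotted lines mark 2-fold. The members lie on both sides of 0, and *Cxcl10*, *Cxcl16* and *Ccr9* lie below the lower dotted line and *Ccl5* and *Cxcl5* above the upper one.

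Of the 5 neutrophil-attracting CXC ligands, *Cxcl5* was detected on both arrays, and 3 were detected on the Δ/Δ-labelled array alone, so that detection itself fixed their direction. *Cxcl5*, which recruits neutrophils through Cxcr2, had a log2 level of -1.39 on the *p38α*+/+ array and -0.28 on the Δ/Δ-labelled array, which is 2.15-fold higher (log2 difference 1.11, SD between spots 0.16). *Cxcl2*, another Cxcr2 ligand made by stimulated myeloid cells, was detected only on the Δ/Δ-labelled array, at a level of -3.67, and was at least 1.98-fold higher. *Cxcl1* and *Cxcl15*, the latter a ligand best known from lung epithelium, were likewise detected only there, and their bounds of at least 1.14-fold and at least 1.07-fold (0.19 and 0.09 on the log2 scale) lie within the SD between spots of 0.28. The only member of the group that was detected on neither array was *Cxcl3*. The receptor side differed. *Cxcr1*, a receptor of the same ligand class, was detected on the *p38α*+/+ array at -3.07 but not on the Δ/Δ-labelled array, and was at least 3.26-fold lower (bound -1.71 on the log2 scale).

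Stretches from the 250 bases before the start of *Cxcl1* and *Cxcl2* are shown because both genes are textbook targets of NF-κB, a factor of the inflammatory response, and both hold its letters more than once. The motif searched was GGG and TTTCC with any 2 bases between them, on either strand, and the sequences are those of RefSeq in build GRCm38.p6, written along the gene. Capitals mark the matches.
*Cxcl2* (chr5:90903792-90903840, plus strand, from -107 to -59 of the start): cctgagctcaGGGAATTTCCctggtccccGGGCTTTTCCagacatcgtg
*Cxcl1* (chr5:90891146-90891193, plus strand, from -99 to -52 of the start; the first match reads on the opposite strand): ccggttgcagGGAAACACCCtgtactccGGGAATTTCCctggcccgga
Promoters were found for 33 of the 48 members, and 6 of these held a match (*Ccl9*, *Ccl20*, *Ccr3*, *Cxcl1*, *Cxcl2* and *Cxcl3*), whereas 447 of all 27025 genes with a promoter did (1.65%). Of the 7 genes that differed by at least 2-fold, 3 (*Cxcl10*, *Ccr9* and *Cxcr1*) had a promoter in the table, and none of these 3 held a match. *Ccl9*, the only one of the 6 detected on both arrays, differed by -0.14, within the SD between spots of 0.16. A match is a description of the letters and not a site shown to be bound.

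The 3 interferon-induced ligands of Cxcr3, which lie side by side on chromosome 5, differed from one another. *Cxcl10*, which attracts activated T cells, had a signal of 42.6 on the *p38α*+/+ array and 6.51 on the Δ/Δ-labelled array, with log2 levels of -1.75 and -4.14. It was 5.25-fold lower there, a log2 difference of -2.39 beside an SD between spots of 0.28. The probe lies at chr5:92775781-92775840 of build mm9. A dimmer *Cxcl10* probe, at chr5:92776616-92776675, did not follow it: its level was -4.37 on the Δ/Δ-labelled array and on the *p38α*+/+ array it was not detected. *Cxcl9* was at 0.94 and 0.42 at its brighter probe (difference -0.52), whereas its other probe, detected on both arrays at -4.45 and -2.66, differed by 1.79 in the opposite direction. The direction of *Cxcl9* thus depends on the probe.

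Of the promoters of *Cxcl10*, *Ccr9* and *Cxcr1*, that of *Cxcl10* alone held the interferon-stimulated response element in the form searched, GAAA and GAAA with any 2 bases between them on either strand. The stretch around it is shown for this reason, from RefSeq in build GRCm38.p6, with the motif in capitals.
*Cxcl10* (chr5:92349083-92349112, minus strand, from -223 to -194 of the start): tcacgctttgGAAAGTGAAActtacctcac
Of the 33 members with a promoter, 3 held these letters (*Ccl19*, *Cxcl10* and *Cxcl14*), and 936 of all 27025 genes did (3.46%). At the brightest probe *Ccl19* was higher on the Δ/Δ-labelled array and *Cxcl10* lower. Each of these genes has another probe that differed in the opposite direction (-0.20 for *Ccl19*, and 0.85 as measured for *Cxcl10*). No direction of the members with the letters is read from them.

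*Cxcl11*, the remaining gene of this cluster, has a probe that is not particular to it. Its brighter probe was at 7.0 on the *p38α*+/+ array and 7.11 on the Δ/Δ-labelled array (difference 0.11, SD between spots 0.10), and its other probe was at 5.24 and 5.55 (difference 0.30). RefSeq lists *Cxcl11* of this assembly as a transcribed pseudogene. The brighter probe shared a stretch of 20 bases with 5 probes named for other genes, and all 5 were detected on both arrays, at a median level of 7.82 on the *p38α*+/+ array. A part of this probe is shown, with the 20 bases that the most promoters held in capitals. Whether these 20 bases are among those shared with the 5 probes was not examined.
*Cxcl11* probe, bases 15 to 44: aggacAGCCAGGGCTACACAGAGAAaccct
The bases in capitals occurred in the promoters of 14 genes, and any stretch of 20 bases of this probe in 21. Of the 63 member probes, 60 shared no 20 bases with a probe of another name. With 16 bases the brighter *Cxcl11* probe shared a stretch with 11 probes and 54 promoters, and its other probe with 1 probe and 9 promoters, against at most 2 probes and 3 promoters for any of the other 61 member probes. How much of the *Cxcl11* signal comes from *Cxcl11* RNA was not tested.

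Another ligand and its receptor were both lower on the Δ/Δ-labelled array. *Cxcl16*, a chemokine made as a transmembrane protein, was at -1.33 on the *p38α*+/+ array and -3.25 on the Δ/Δ-labelled array, which is 3.77-fold lower (log2 difference -1.91, SD between spots 0.28). Its only receptor, *Cxcr6*, found on T and NK cell subsets, was at -0.43 and -1.41, which is 1.98-fold lower and just short of the size used for calls (log2 difference -0.98, SD between spots 0.16). The second *Cxcr6* probe, which overlaps the first, was at -0.996 and -1.90 and differed by -0.90. *Cxcl16* has 1 probe, at chr11:70267780-70267839.

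*Cxcr6* has a neighbour on chromosome 9 that was lower too. *Ccr9*, the receptor that guides lymphoid progenitors to the thymus and lymphocytes to the gut, was at -1.18 on the *p38α*+/+ array and -2.60 on the Δ/Δ-labelled array, which is 2.69-fold lower (log2 difference -1.43, SD between spots 0.16). The probes of *Ccr9* (chr9:123690334-123690393) and *Cxcr6* (chr9:123720719-123720778) are 30.3 kb apart. A second *Ccr9* probe was well above background on neither array. Of the 9 members on chromosome 9, 3 were detected on both arrays, 2 lower and 1 (*Ccr8*) higher. *Xcr1*, outside the family list and named here after its value was seen, lies beyond *Cxcr6* (chr9:123761482-123761541). It was detected only on the Δ/Δ-labelled array and was at least 1.53-fold higher. Elsewhere, of the 14 members on chromosome 11, 7 were detected on both arrays, 2 lower and 5 higher, and of the 11 on chromosome 5, 5 were, 3 lower and 2 higher.

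*Ccl25*, the thymus-expressed ligand that *Ccr9* reads, was at 2.51 on the *p38α*+/+ array and 2.46 on the Δ/Δ-labelled array, and the difference of -0.06 was within the SD between spots of 0.10. Its 4 probes, however, gave different values. One of the other 3 differed by -0.004, another was at -1.85 and -4.02 (difference -2.16), and the last was detected only on the Δ/Δ-labelled array, at -1.83. The 4 probes span chr8:4327833-4359975 in build mm9.

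Among the CC receptors, *Ccr10* stood at the other end. *Ccr10*, which reads *Ccl27* and *Ccl28* and is carried by skin-homing T cells and by plasma cells that make IgA, was not detected on the *p38α*+/+ array (signal 6.03) and was at -2.30 on the Δ/Δ-labelled array (signal 23.4), so that it was at least 4.84-fold higher. It has 1 probe, at chr11:101034312-101034371. *Ccl27a*, its ligand from keratinocytes, was lower at each of its 3 probes, with log2 differences from -0.52 to -0.34 (0.88 and 0.54 at the brightest probe). *Ccl28* was not detected. *Ccr6*, the receptor for *Ccl20*, was detected only on the Δ/Δ-labelled array and was at least 1.80-fold higher. *Ccr7*, which guides cells to lymph nodes, and *Ccr8*, the receptor for *Ccl1*, were both dim, and their differences of 0.29 each were close to the SD between spots of 0.28.

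**Figure D3:**
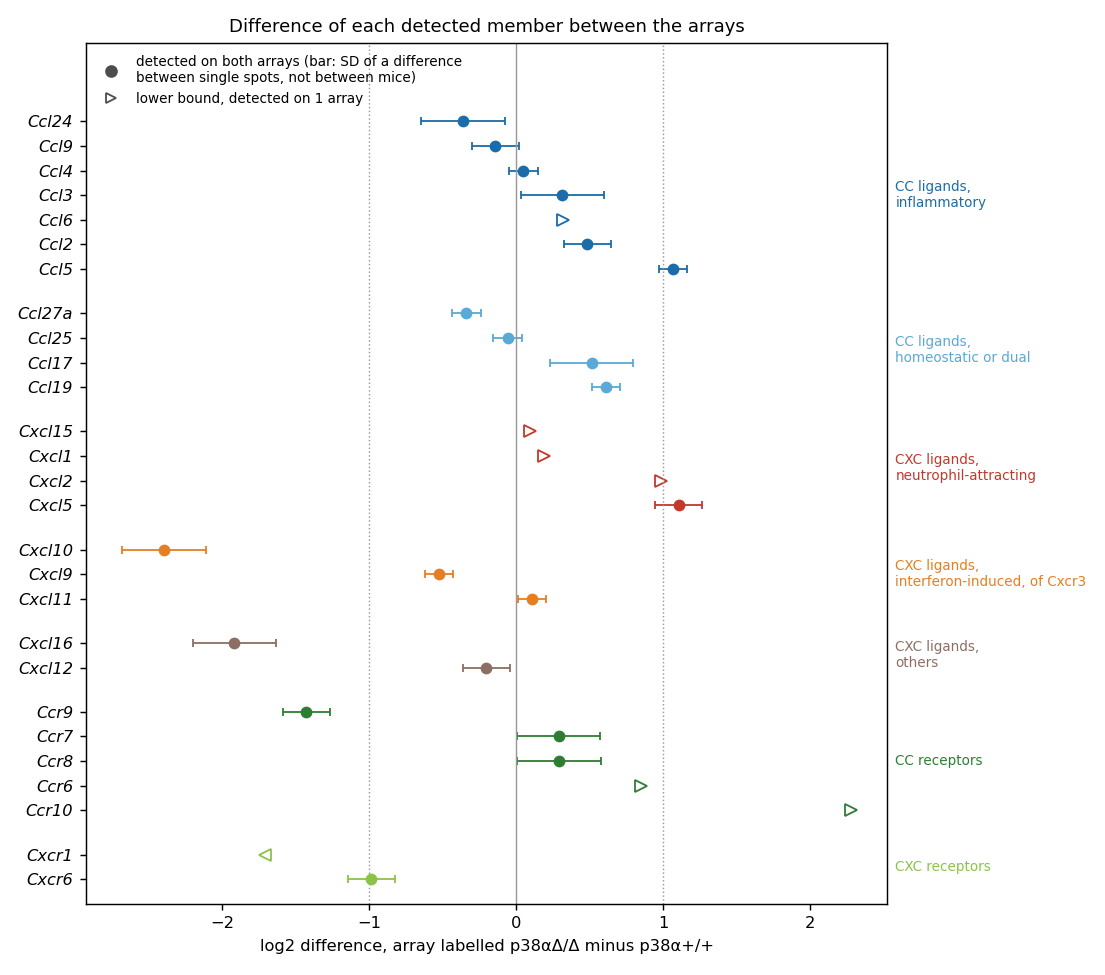
Log2 difference (Δ/Δ-labelled array minus *p38α*+/+) of the 27 detected genes, ordered by role. Bars are the SD of a difference between single spots, which holds no variation between mice, and open triangles are lower bounds for the 7 genes detected on 1 array. Dotted lines mark 2-fold: *Cxcl10*, *Cxcl16*, *Ccr9* and *Cxcr1* lie to the left and *Ccr10*, *Cxcl5* and *Ccl5* to the right.

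Of the 6 inflammatory CC ligands detected on both arrays, 1 differed by at least 2-fold. *Ccl5* (RANTES), a leukocyte attractant made by T and NK cells among others, was at 0.68 on the *p38α*+/+ array and 1.75 on the Δ/Δ-labelled array, which is 2.10-fold higher (log2 difference 1.07, SD between spots 0.10). *Ccl2*, which recruits monocytes through Ccr2, is the best measured member, since its probe was spotted 10 times. Its spots ran from -0.83 to -0.62 on the *p38α*+/+ array and from -0.32 to -0.11 on the Δ/Δ-labelled array, with SDs of 0.07 and 0.06, and did not overlap. The 1.40-fold difference (0.49) was thus far outside the spot error, though spots of 1 array are not replicates of a genotype. The spot error also holds no error of setting each array to its percentile, which all 10 spots share (signals 88.1 and 98.9 before it). Over all 15601 genes detected on both arrays, the quartiles of the difference were -0.35 and 0.30.

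The other 4 inflammatory ligands detected on both arrays differed by less than *Ccl2*. *Ccl4*, an attractant of leukocytes, was at 0.68 and 0.73 (difference 0.05), and *Ccl3*, a ligand known to restrain the cycling of blood progenitors, was at -4.08 and -3.76 (0.32). *Ccl9*, a Ccr1 ligand of myeloid cells, differed by -0.14, and *Ccl24*, an eosinophil attractant that acts through Ccr3, by -0.36. *Ccl24* and *Ccl3* exceeded the spot error of their level by little, and *Ccl9* and *Ccl4* did not exceed it. *Ccl6* was detected only on the Δ/Δ-labelled array, and its 1.25-fold higher level there is a lower bound (measured log2 difference 1.23).

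Homeostatic ligands place lymphocytes and stem cells rather than respond to infection, and dual ligands can do both. Of 8 CC ligands grouped as homeostatic or dual, 4 were detected (*Ccl17*, *Ccl19*, *Ccl25* and *Ccl27a*). None of them differed by 2-fold at the probe that stands for the gene. *Cxcl12*, grouped with *Cxcl16* among the other CXC ligands, is given beside them. *Ccl19*, the Ccr7 ligand of lymphoid stroma, was at 2.28 on the *p38α*+/+ array and 2.89 on the Δ/Δ-labelled array (difference 0.61, SD between spots 0.10). Its 3 probes did not agree, with differences of -0.20, 0.61 and 1.12. *Ccl17*, a ligand of Ccr4, was at -3.18 and -2.66 (0.51). *Cxcl12*, the niche chemokine, was at -1.59 and -1.79 (-0.20), which is close to the SD between spots of 0.16. *Ccl19* and *Ccl27a* have near-identical copies in the mouse genome, and their values are uncertain for that reason.

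**Figure D4:**
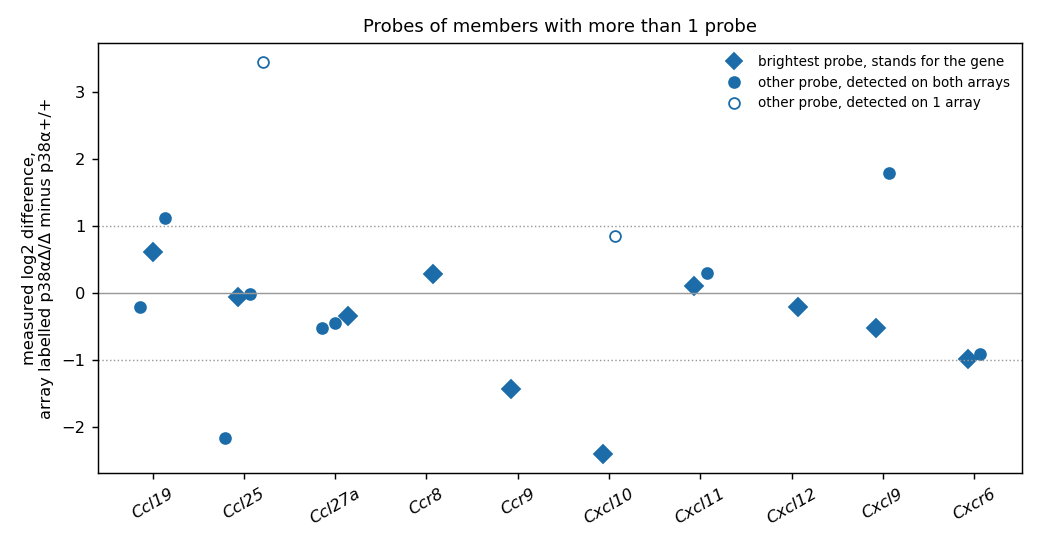
Measured log2 difference of each probe detected on at least 1 array, for the 10 detected members with more than 1 probe. Diamonds are the brightest probe, filled circles other probes detected on both arrays and open circles probes detected on 1 array, whose difference is as measured and not a bound. Probes of *Cxcr6*, *Ccl27a* and *Cxcl11* lie close together, and those of *Ccl19* and *Cxcl9* lie on both sides of 0, as do those of *Ccl25* and *Cxcl10* with the probe detected on 1 array.

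Of the 11 members with more than 1 probe, 6 had at least 2 probes detected on both arrays, and in 4 of these (*Ccl25*, *Ccl27a*, *Cxcl11* and *Cxcr6*) all such probes differed in 1 direction. For *Ccl25*, however, differences of -0.06 and -0.004 were within the SD between spots. Probes of *Cxcr6* overlap one another, as do some of *Ccl27a*. All differences of 2-fold ended when the background was corrected by normexp with an offset of 50 in place of the scanner's correction: *Cxcl10* was then at -0.39, *Cxcl16* at -0.49, *Ccr9* at -0.45, *Cxcr1* at -0.18, *Ccr10* at 0.55, *Cxcl5* at 0.68 and *Ccl5* at 0.90, each in the same direction as before. With all probes of a gene averaged, *Cxcl10* (-0.77) and *Ccr9* (-0.77) also fell short of 2-fold, and *Cxcl12* passed it (-1.16). The averages of *Ccr9* and *Cxcl12* each include a probe detected on neither array. That of *Cxcl12* was at -4.80 and -6.91, and its detected probe differed by -0.20, so the -1.16 is not read as a difference of *Cxcl12*.

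The genes around the family were read from fixed lists. Beside all lists below, 6.73% of the genes detected on at least 1 array were at least 2-fold lower on the Δ/Δ-labelled array and 4.13% at least 2-fold higher. Of all 15601 genes detected on both arrays, 8308 were lower and 7293 higher. Of 12 other genes of the chemokine system (atypical receptors, *Cx3cl1* and *Cx3cr1*, platelet chemokines and others), 8 were detected and 1 was at least 2-fold lower: *Cx3cr1*, the fractalkine receptor of monocytes, named here after its value was seen, was at least 3.19-fold lower, being detected on the *p38α*+/+ array alone. Among those detected on both arrays, *Ccrl2* (-0.64) and *Cx3cl1* (-0.36) were the lowest and *Ppbp* (0.51) and *Ackr1* (0.29) the highest. Of 32 genes that carry the signal below chemokine receptors (G protein subunits, kinases, arrestins, GTPases and RGS proteins), 31 were detected, 23 lower and 8 higher, with a median of -0.19 beside -0.04 over all genes. Only *Rgs19*, a brake on G protein signalling, was at least 2-fold lower (-1.10), and 0 were at least 2-fold higher. *Cdc42*, a GTPase of cell polarity, was next (-0.63), and *Rgs16* (0.78) and *Rgs2* (0.48) were the highest.

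Markers of other blood cells differed between the arrays as well. Of 9 neutrophil markers, 6 were detected on the *p38α*+/+ array and 7 on the Δ/Δ-labelled array, and 7 were at least 2-fold higher on the latter. Among the 5 detected on both arrays the highest differences were those of *Ltf* (2.23) and *S100a9* (2.01). The summed linear level, here and below over the genes of a list detected on both arrays, was 5.20 and 19.3, with the *p38α*+/+ array first. The brightest probe of a list weighs most in such a sum, here that of *S100a9* (log2 levels 1.91 and 3.92). In the sums below it was *Igj* for B and plasma cells, *Nkg7* for T and NK cells, *Csf1r* for monocytes and *Kit* for LT-HSCs. *Ly6g*, a defining marker, was detected on the *p38α*+/+ array alone (at least 2.80-fold lower on the other), and *Mmp9* on neither. *Cxcr2*, the main chemokine receptor of neutrophils, was detected on neither array. The part of these markers in the values of *Cxcl5*, *Cxcl2* and *Cxcr1* was not tested.

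Markers of B, plasma, T and NK cells are given beside the lymphoid members. Of 7 B cell and plasma cell markers, all were detected on the Δ/Δ-labelled array and 5 on the *p38α*+/+ array, the summed level was 2.62 and 17.4, and *Igj*, the joining chain of secreted antibody, was 13.5-fold higher (3.75), with *Cd79a* (1.26) the next highest of those detected on both arrays. Without *Igj* the summed level of the other 4 was 1.49 and 2.14. Of 9 T cell and NK cell markers, 5 were detected, with a median of 0.57 and a summed level of 17.3 and 23.1, the highest being *Cd3e* (1.02) and *Cd4* (0.74) and the lowest *Klrb1c* (-0.53), whereas *Cd3d*, *Cd3g*, *Cd8b1* and *Ncr1* were detected on neither array. *Cxcr6* and *Ccr9* were lower, while the 5 detected T cell and NK cell markers ran from -0.53 to 1.02, 4 higher and 1 lower. The part of B, plasma, T and NK cells in the values of *Ccr10*, *Ccl5*, *Cxcr6* and *Ccr9* was not tested.

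Of 10 monocyte and macrophage markers, 8 were detected and none was past 2-fold. The 7 detected on both arrays had a median of 0.44 and a summed level of 30.8 and 36.1. Of 5 dendritic cell markers, 3 were detected, and the 2 detected on both arrays had a median of 0.22. Of 7 stromal and endothelial markers, 5 were detected, and the 4 detected on both arrays had a median of 0.14. Of 8 markers of eosinophils, basophils and mast cells, 6 were detected, with 1 lower and 2 higher by 2-fold. The 5 of these detected on both arrays had a median of 0.08. The 11 LT-HSC markers were all lower, with a median of -0.78 and a summed level of 131 and 98.1, and *Mecom* (-1.44) and *Procr* (-1.22) were the lowest. Whether the makeup of the sorted cells had a part in the members' differences was not tested.

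**Figure D5:**
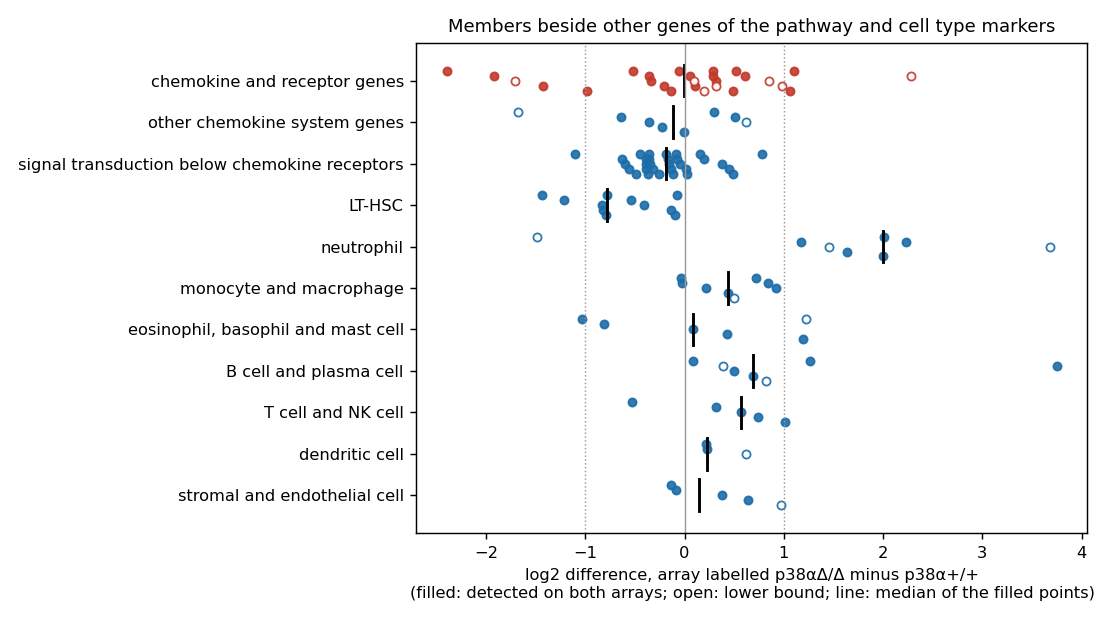
Log2 difference (Δ/Δ-labelled array minus *p38α*+/+) of each detected gene of the chemokine family and of the other lists, 1 point per gene, with open points for lower bounds and a black line at the median of the genes detected on both arrays. The family is centred on 0 with a wide spread, neutrophil markers have a median of 1.99 and LT-HSC markers a median of -0.78.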

How the data were processed

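For each array the authors deposited the scanner intensity of every spot (Agilent Feature Extraction 11.5.1.1 per the labels), corrected for background but not normalized between arrays, and normalized log2 values of 35795 probes, each equal to the log2 signal minus 1 constant per array. Here control spots and outlier spots were left out (19 probes lost), spots of a probe were averaged on the log2 scale, and each array was set to its 75th percentile over 55662 probes. The log2 floors were -4.65 and -4.78, and 67.9% and 69.0% of probes were well above background; 0 spots were saturated. Genes named are the detected members, most undetected members, and up to 2 of the largest rises and falls of some other lists among genes detected on both arrays. Also named are some markers not detected on both arrays, the brightest gene of some lists and a few said to be chosen after their values were seen. Members and lists were chosen with earlier results of these data known. Genes matched RefSeq (GRCm38.p6) by symbol or synonym; probe coordinates are mm9. Calculations were tested on simulated data, with genes detected on both arrays and changes well above 2-fold. The noise set there was below the spot error of dim genes, and lower bounds and differences near 2-fold were not simulated. R 4.3.3 with limma 3.58.1 and Python 3.11.15 with numpy 2.4.6, pandas 2.3.3 and statsmodels 0.14.6 served. Protein sequences were not analysed here, and some listed genes are not reported here. The number of arrays limits the precision.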

Additional observations from a re-analysis of the deposited data

How the results depend on the processing

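Across 11 alternatives (loess with span 0.3, quantile normalization, the detected probes' median as centre, normexp, the authors' log2 values, the mean of a gene's probes, 2 other filters, no floor, a weaker detection flag and outlier spots kept) none of the 7 genes that differed by at least 2-fold changed direction where it had a value, and *Ccr10* and *Cxcr1* had none with the authors' values or with detection on both arrays required. Normexp left 0 members at least 2-fold lower and 0 higher, beside 0.723% and 0.286% of all genes, where the offset of 50 added to each spot exceeds the signal on at least 1 array of 5 of the 7 genes. Without a floor 5 members were higher, and with the weaker flag 8 were and the median over 37 detected members was 0.25. Without a filter all 48 entered, and the median was -0.13, which is the gap between the arrays' floors. The other counts stayed within 1.5 times and the other medians within the spot error of 0.13. Of 282 values of single members, 254 moved by less than the spot error. *Ccl24*, *Ccl25*, *Cxcl9* and *Cxcl12*, none of them called, changed sign under at least 1 alternative. With all 34646 gene names as background, 6.36% of detected genes were lower and 5.53% higher. The split at a level of 0, the stretch of 16 bases and the sum without *Igj* were chosen after seeing the data. No paired analysis was possible because each genotype had 1 array, and no replicate could be left out.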
